A study of Mus musculus with 8 samples.

Results

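The 4 control libraries of the series were described here across all genes, without their comparison with the other 4. They were chosen by genotype as labelled, 4 of 8 libraries in all. Each holds RNA from GFP-positive cells of dorsal skin, taken at postnatal day 21 from mice on a mixed C57Bl-6 and 129Sv background. The control genotype carries floxed Bmi1 alleles, Dct-rtTA and TRE-H2B-GFP, with no Cre listed, so Bmi1 was left intact. In these mice a doxycycline-dependent activator made under Dct drives a histone-GFP reporter, and doxycycline was given in the feed. Skin was dissociated with collagenase and trypsin at 37 °C, and cells that were DAPI-negative, not autofluorescent and GFP-positive were collected, more than 10000 per library. The gate is therefore set by a history of Dct activity and by long-lived histone-GFP, and any cell with that history can enter it. Whether each replicate is a separate animal is not stated in the labels, so their spread may be partly technical.

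Melanocyte stem cells sit in the bulge and sub-bulge of the hair follicle, where they stay mostly quiescent between hair cycles and make the pigment cells of the next hair. The transcription factors MITF, SOX10 and PAX3 specify the lineage, and the receptor tyrosine kinase KIT and the endothelin receptor EDNRB carry survival and migration signals into it. MITF binds E-boxes with a T before CATGTG, the M-box, in front of melanin genes such as Tyr, Tyrp1 and Dct. WNT, TGF-beta and Notch signals from the surrounding keratinocytes and dermal cells are known to govern their rest and activation.

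Levels are given on 2 scales. CPM are counts scaled to 1000000 per library after TMM scaling, and serve to compare 1 gene between libraries and to sum gene groups. Rescaled TPM divide by transcript length and sum to 1000000 over the 21851 nuclear protein-coding genes, and serve to compare genes. A gene counted as expressed at 1 CPM or more in all 4 libraries, and a list is set beside all nuclear protein-coding genes, of which 11658 (53.4%) were expressed and 3983 (18.2%) had no count in any control library. Over all 21851 the median level was 3.76 CPM and 5.56 rescaled TPM. Where a sentence gives 4 values for a gene or list, they are those of controls 1, 2, 3 and 4 in that order. A mean ± SD is over these 4 libraries (n = 4).

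The libraries held 8882656 to 9466711 counts, at which 3 counts come to 0.307 to 0.338 CPM. Of 54418 gene identifiers, 13350 were expressed and 23590 had no count in all 4. The 50 most abundant genes took 21.9% to 25.0% of the counts, and the mitochondrial genome took 5.30% to 8.24%. Gm23935, annotated as a microRNA, and CT010467.1, annotated as ribosomal RNA, together took 2.62% to 5.46% of the counts, while Gm23935 alone took 73.7% to 85.5% of the deposited TPM. Levels of Xist and of the Y-linked genes put controls 1 and 3 apart from 2 and 4. Xist, the RNA that silences an X chromosome in females, stood at 1037 and 1115 CPM in controls 1 and 3 and at 0.102 and 0.450 CPM in controls 2 and 4. Ddx3y, on the Y chromosome, stood at 97.3 and 107 CPM in controls 2 and 4 and at 0 and 0.106 CPM in controls 1 and 3. The libraries labelled as replicates therefore came from both sexes.

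The M-box is shown in the promoters of pigment genes, because some of these genes, such as Dct and Tyrp1, were among the most abundant of the cells. The letters searched were TCATGTG on either strand (CACATGA on the other), in the 250 bases before each RefSeq start (GRCm38.p6). Of the 15 melanin genes listed, 11 had a promoter in the RefSeq table and 6 of these held the box, namely Dct, Tyrp1, Tyr, Trpm1, Slc24a5 and Slc7a11. Among all 27025 genes with a promoter there, 1006 (3.72%) held it in any promoter. The box was known from Dct, Tyrp1 and Tyr before the search, so the 2 shares do not make a test. Trpm1 has 2 promoters there, of which 1 held the box. A match is a description of letters and does not show that a factor binds there. The first 3 sequences are whole windows on the gene's strand, with the box in capitals, and Dct holds the box on both strands. They lie at chr14:118052247-118052496 (minus strand, Dct), chr7:87493513-87493762 (minus strand, Tyr) and chr7:64153585-64153834 (plus strand, Trpm1). The last 3 are the box with up to 10 bases on each side.
Dct: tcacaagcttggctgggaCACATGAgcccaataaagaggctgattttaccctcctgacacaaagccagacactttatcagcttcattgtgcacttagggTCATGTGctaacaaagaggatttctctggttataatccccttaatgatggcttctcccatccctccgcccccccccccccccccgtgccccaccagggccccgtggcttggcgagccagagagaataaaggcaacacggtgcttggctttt
Tyr: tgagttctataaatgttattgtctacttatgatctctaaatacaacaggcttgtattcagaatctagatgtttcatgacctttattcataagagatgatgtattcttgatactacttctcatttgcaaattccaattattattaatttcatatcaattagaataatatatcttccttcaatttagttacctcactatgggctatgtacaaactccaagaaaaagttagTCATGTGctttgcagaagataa
Trpm1: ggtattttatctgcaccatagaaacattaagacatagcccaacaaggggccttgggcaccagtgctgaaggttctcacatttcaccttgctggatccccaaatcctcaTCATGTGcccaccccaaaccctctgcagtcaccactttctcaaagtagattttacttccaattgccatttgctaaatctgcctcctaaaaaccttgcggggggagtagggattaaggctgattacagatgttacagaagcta
Tyrp1: ggggagggagTCATGTGctgcctagta
Slc24a5: ggagactgctCACATGAttcagc
Slc7a11: tggagttttcTCATGTGgctgatgcaa
The 5 listed genes with a promoter and no such letters in it were Gpnmb, Atp7a, Cd63, Tpcn2 and Oca2. The genes with the box ran from 7183 rescaled TPM for Dct to 3.69 for Slc7a11. Those without ran from 714 for Gpnmb to 7.10 for Tpcn2, so the 2 ranges overlapped.

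All 4 marker genes of the lineage were at high levels in every control library. Dct (ENSMUSG00000022129, chr14:118012790-118052244), the dopachrome tautomerase of melanin synthesis and the gene whose promoter drives the reporter, stood at 3778, 3999, 5688 and 6418 CPM. Its mean of 7183 ± 1790 rescaled TPM was rank 1 among nuclear protein-coding genes. Controls 3 and 4 were higher for Dct than controls 1 and 2. Kit (ENSMUSG00000005672, chr5:75574916-75656722), the stem cell factor receptor, stood at 1232, 1178, 1486 and 1731 CPM and 1036 ± 217 rescaled TPM, rank 84. Mitf (ENSMUSG00000035158, chr6:97807052-98021349), the master transcription factor of the lineage, stood at 672, 781, 1031 and 1142 CPM and 797 ± 198 rescaled TPM, rank 135. Sox10 (ENSMUSG00000033006, chr15:79154908-79165240), a neural crest factor upstream of Mitf, stood at 428, 352, 430 and 442 CPM and 486 ± 63.3 rescaled TPM, rank 280. All 4 markers were highest in control 4, and for Sox10 control 2 stood below the other 3 libraries. The coordinates are those of GENCODE M21 on mm10. In a bulk sample a lower level can come from fewer cells of a type or from less RNA per cell, and these cannot be told apart.

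Among the 15 highest nuclear protein-coding genes by CPM were Ahnak (8316 ± 866), Dct (4971 ± 1288), Lars2 (4663 ± 1770), Dst (4593 ± 691), Vim (3051 ± 262), Hspg2 (3033 ± 591), Sptbn1 (2835 ± 479), Eef1a1 (2765 ± 574), Col3a1 (2734 ± 665), Hsp90ab1 (2366 ± 697), Hspa8 (2349 ± 568), Tyrp1 (2306 ± 587), Actb (2176 ± 269) and Plec (2063 ± 386). They include large scaffold proteins of membrane and cytoskeleton (AHNAK, dystonin, spectrin, plectin), the intermediate filament vimentin and the proteoglycan perlecan. Long transcripts collect more counts, and on the per-length scale the order changed, with 45 genes shared between the top 100 of both scales. Among the 6 highest by rescaled TPM were Dct, Eef1a1 (6047 ± 1617), Hist1h2bl (4911 ± 840), Vim (4827 ± 399) and Actb (3989 ± 501). The SDs of Dct and Eef1a1 are larger than the gap between them. Ahnak fell to 1717 ± 263 and Dst to 1062 ± 207 on this scale. Of the 100 highest coding genes by CPM in each library, 69 were shared by all 4.

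Hist1h2bl, a histone H2B gene, stood at 450, 288, 398 and 473 CPM. Of the 67 replication-dependent histone genes 21 were expressed and their median was 1.94 CPM, with sums of 883, 639, 846 and 1050 CPM. The reporter itself carries a histone H2B, and its part in these levels was not tested.

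Outside the nuclear protein-coding genes, the 5 highest were mt-Rnr2 at 39757 ± 6729 CPM, Malat1 at 37293 ± 3510, Gm23935 at 24381 ± 6784, mt-Rnr1 at 18306 ± 4185 and CT010467.1 at 14895 ± 6004. The first and the fourth are the mitochondrial ribosomal RNAs, and Malat1 is a nuclear-retained long noncoding RNA. CT010467.1 stood at 11227, 8856, 17391 and 22106 CPM. Lars2, the mitochondrial leucyl-tRNA synthetase, moved in the same order, at 3768, 2789, 5255 and 6840 CPM. The annotated transcripts of Lars2 and CT010467.1 shared 0 of 11160 words of 31 bases. Only the strand as annotated was searched, so a match to the reverse complement would have been missed. Lars2 was not compared with Gm23935 or with other ribosomal RNA, and the part of ribosomal RNA in its level was not tested.

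**Figure D1:**
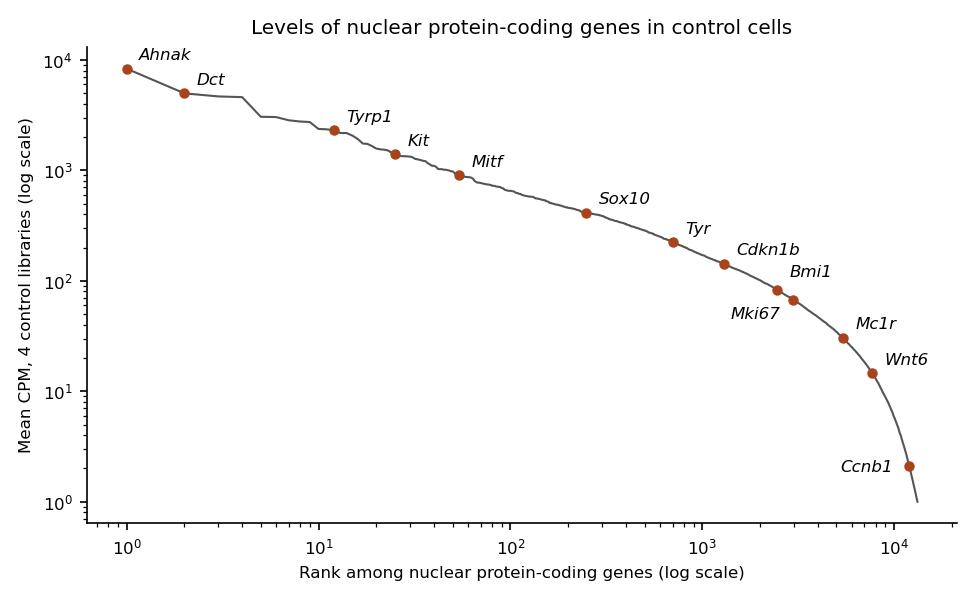
Mean CPM over the 4 control libraries (log axis) against rank among nuclear protein-coding genes (log axis), for genes with a mean of at least 1 CPM. The curve runs from Ahnak at 8316 CPM, past Dct, Tyrp1, Kit, Mitf and Sox10, to Mki67 at 67.3 CPM and Ccnb1 at 2.10 CPM (1.26 CPM without control 4); CPM are not divided by length.

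The pigment programme was expressed almost in full. Of 15 genes for melanin enzymes, melanosome matrix and transport, 14 were expressed, with a median of 127 CPM and 183 rescaled TPM. Tyrp1, which oxidises an intermediate of eumelanin, stood at 1600, 2180, 2425 and 3018 CPM and 3470 ± 1028 rescaled TPM, rank 11. Mlana, a melanosome protein, stood at 283, 352, 334 and 452 CPM and 1233 ± 220 rescaled TPM. Pmel, which forms the fibrils that carry melanin, stood at 451, 482, 836 and 976 CPM and 1094 ± 400 rescaled TPM. Gpnmb, a melanosome glycoprotein, had 714 ± 105 rescaled TPM. Control 4 was the highest library for each of these 4 genes.

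Tyr, the rate-limiting enzyme of melanin synthesis, was lower per length than Dct and Tyrp1 in every control library. It stood at 151, 216, 242 and 282 CPM and 160 ± 39.0 rescaled TPM. The transporters and channels of the melanosome were at a similar or lower level. Slc24a5 had 191 ± 47.9, Trpm1 183 ± 56.3, Slc45a2 83.5 ± 25.9, Oca2 10.4 ± 4.48 and Slc7a11, the cystine transporter of pheomelanin synthesis, 3.69 ± 2.47 rescaled TPM. Slc7a11 was the 1 listed gene not expressed in all 4, at 0.106, 4.20, 5.22 and 11.1 CPM. The sum of the 15 genes was 7462, 8552, 10979 and 12795 CPM, a spread of 1.71 times between the lowest and the highest library. For melanosome biogenesis and movement, 22 of 23 genes were expressed, with a median of 46.1 rescaled TPM. The highest of them by CPM were the motor Myo5a (1075 ± 269 CPM), the trafficking regulator Lyst (771 ± 274), Mlph, which links that motor to melanosomes (339 ± 80.8), and Sytl2 (322 ± 90.5).

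Of 30 transcription factors of the lineage, 24 were expressed, with a median of 60.5 rescaled TPM. Zeb2, a repressor needed for melanocyte differentiation, was the highest per length at 1040 ± 361 rescaled TPM, beside Mitf at 797 ± 198. The gap between these 2 was smaller than the SD of Zeb2 but larger than that of Mitf, and they went opposite ways between libraries. Zeb2 stood at 1297, 1265, 778 and 670 CPM, while Mitf stood lowest in control 1 and highest in control 4. Pax3, a regulator of Mitf, stood at 412, 384, 461 and 480 CPM and 317 ± 30.6 rescaled TPM. After Sox10 and Pax3 came Tfap2a (205 ± 34.2), Nfia (188 ± 19.6), Sox6 (133 ± 22.3) and Nfib (132 ± 28.2 rescaled TPM), and Foxd3 had 104 ± 9.15. NFIB is known as a stem cell factor of the bulge, and FOXD3 holds neural crest cells back from the melanocyte fate. Sox2 had 79.6 ± 21.6 and Sox9 23.4 ± 5.18 rescaled TPM. Of the SNAIL and TWIST factors, Snai2 had 22.2 ± 5.37 rescaled TPM. Snai1, at 0.917 ± 0.706 rescaled TPM, and Twist1, at 1.59, 0.512, 0.958 and 0.113 CPM, were low or near the floor. Tfec, a relative of Mitf, had no count in all 4. The sum over the 30 factors was 4451, 4465, 4345 and 4318 CPM, a CV of 1.69%, within which Zeb2 and Mitf moved in opposite order.

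**Figure D2:**
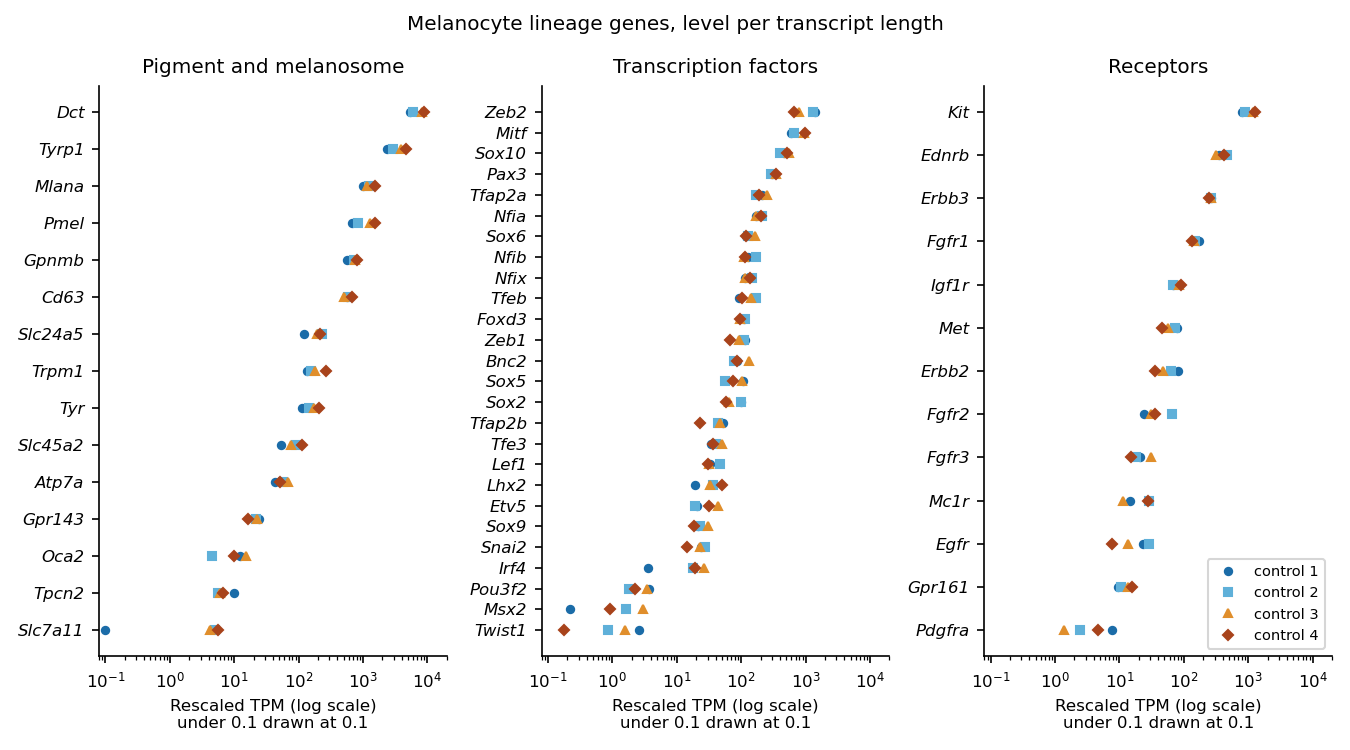
Rescaled TPM (log axis) in each control library for pigment genes, lineage transcription factors and lineage receptors with a mean of at least 1, ordered by mean. Dct, Tyrp1, Kit, Zeb2 and Mitf stand at the top of their panels, and the 4 libraries lie close together for most genes above 100.

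Receptors for niche signals were expressed more widely than their ligands. Of 16 receptors of the lineage 13 were expressed, with a median of 30.1 rescaled TPM, against 9 of 20 ligands, with a median of 2.91. After Kit, the receptors highest per length were Ednrb at 392 ± 72.2, Erbb3, the neuregulin receptor, at 259 ± 10.8, and Fgfr1 at 149 ± 16.7 rescaled TPM. Ednrb stood at 543, 716, 460 and 649 CPM. Erbb3 was even between the libraries, at 675, 638, 650 and 620 CPM (CV 3.54%). Igf1r (78.2 ± 11.5), the HGF receptor Met (63.0 ± 15.0), Erbb2 (56.8 ± 19.7), Fgfr2 (38.9 ± 18.4), Fgfr3 (21.3 ± 6.64), Egfr (18.2 ± 9.41) and the ciliary receptor Gpr161 (12.4 ± 2.93 rescaled TPM) were lower. Mc1r, the melanocortin receptor that turns on eumelanin synthesis, stood at 22.1, 41.2, 16.9 and 41.6 CPM and 20.7 ± 8.79 rescaled TPM. It was higher in controls 2 and 4 than in 1 and 3, the same split of libraries as Xist. That split was seen after the fact. How many other genes share it was not counted, and the part of sex was not tested. Pdgfra, Pdgfrb, Ednra and Adora2b were at 4.02 rescaled TPM or less.

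Of the 20 ligands listed for these receptors 9 were expressed, 5 had a mean under 1 CPM and 1 of those had no count. Hbegf, an EGF receptor ligand, stood at 177, 141, 162 and 126 CPM and 279 ± 34.9 rescaled TPM. Kitl, the ligand of KIT, stood at 61.0, 70.1, 73.5 and 63.0 CPM and 111 ± 34.9 rescaled TPM. Fgf2 had 73.4 ± 33.3 and Pdgfa 60.7 ± 21.7 rescaled TPM. Edn3, the ligand of EDNRB in the melanocyte lineage, had no count in any control library. The other endothelins, Edn1 and Edn2, had 1.39 ± 0.828 and 1.44 ± 0.649 CPM, and Hgf 1.18 ± 0.896 CPM. Pomc, the precursor of melanocortins, stood at 0.106, 0.102, 1.92 and 1.35 CPM. The neuregulin Nrg1, a ligand of ERBB3, had 1.66 ± 1.99 rescaled TPM. In these bulk libraries Kit and its ligand gene Kitl were thus both expressed, and Hbegf and Egfr were both detected. For EDNRB, ERBB3 and MET the listed ligands Edn3, Nrg1 and Hgf were not expressed. Which cells carried each RNA was not tested, here or for the pathways below, and keratinocyte genes were present too.

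For WNT the same order by role was seen. Of 18 receptors and co-receptors 16 were expressed (median 15.8 rescaled TPM), of 11 intracellular effectors 10 (median 111), of 15 antagonists 10 (median 8.25) and of 19 ligands 4 (median 1.29). The co-receptor Lrp6 had 97.2 ± 11.4 rescaled TPM, Fzd1 81.6 ± 21.7, Fzd7 70.0 ± 2.93 and the co-receptor Lrp5 49.3 ± 5.28. The R-spondin receptors were all present, Lgr4 at 58.2 ± 8.22, Lgr6 at 17.0 ± 4.25 and Lgr5 at 16.9 ± 3.59 rescaled TPM. The other receptors at 10 CPM or more were Ryk (53.3 ± 7.60 CPM), Fzd3 (55.1 ± 19.4), Fzd5 (34.6 ± 6.58) and Fzd8 (28.0 ± 3.70 CPM). The ligands summed to 45.4, 44.1, 49.2 and 34.0 CPM, of which Wnt6 (22.7, 14.1, 13.0 and 8.78 CPM), Wnt4 (8.29 ± 1.57 CPM), Wnt10b (5.13 ± 2.05 CPM) and Wnt3 (3.22 ± 1.24 CPM) made the greater part. Wnt1, Wnt2, Wnt8a and Wnt9b had no count in any library.

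Ctnnb1, the beta-catenin gene, stood at 879, 919, 1008 and 1105 CPM and 998 ± 167 rescaled TPM. The feedback targets of the pathway were expressed, Axin2 at 166, 177, 199 and 255 CPM (185 ± 40.1 rescaled TPM) and Nkd1 at 258, 188, 200 and 200 CPM (169 ± 24.3 rescaled TPM). Control 4 was highest for Ctnnb1 and Axin2. Apc and Gsk3b, of the complex that degrades beta-catenin, had 267 ± 8.09 and 228 ± 21.6 CPM. Among the antagonists Dkk3, a divergent member of its family, was the highest at 266 ± 49.8 rescaled TPM, followed by Sfrp1 at 60.5 ± 16.2, Kremen1 at 31.8 ± 2.27 and the receptor ligase Znrf3 at 20.9 ± 4.15. Dkk4 had no count.

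The TGF-beta and BMP pathway had 11 of 12 receptors expressed (median 58.1 rescaled TPM), 20 of 21 effectors and antagonists (median 60.8) and 9 of 16 ligands (median 4.44). Tgfbr3, the co-receptor betaglycan, stood at 483, 397, 371 and 347 CPM and 287 ± 47.9 rescaled TPM. The signalling receptors Tgfbr1 (93.6 ± 16.2), Tgfbr2 (65.6 ± 16.1), Bmpr1a (115 ± 23.8) and Bmpr2 (70.1 ± 12.4 rescaled TPM) lay close together. Acvr1, Acvr1b, Acvr2a, Acvr2b, Acvrl1 and Eng ran from 12.6 to 116 rescaled TPM, and Bmpr1b was at 0.131. Of the ligands, Tgfb1 was the highest per length at 135 ± 52.7 rescaled TPM. Tgfb3 had 18.2 ± 1.49, Tgfb2 7.99 ± 5.29, Bmp7 13.3 ± 6.46, Bmp2 10.7 ± 1.94 and Gdf11 8.33 ± 1.03. Bmp1, a protease grouped with the BMPs by name, had 50.1 ± 15.5 rescaled TPM. Among effectors the repressor Ski (372 ± 43.1 CPM), Smad5 (258 ± 45.3), Skil (161 ± 26.9) and the target Id2 (106 ± 15.9 CPM) were the highest, and Nog, the BMP antagonist noggin, had no count.

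For Notch, Notch1 stood at 674, 534, 674 and 610 CPM and 209 ± 17.2 rescaled TPM, and Notch2 at 240, 200, 237 and 217 CPM and 62.2 ± 7.65 rescaled TPM. The target Hes1 had 158 ± 39.0 and the DNA-binding partner Rbpj 52.7 ± 24.1 rescaled TPM, and the coactivators Maml2 and Maml1 30.3 ± 3.55 and 30.1 ± 0.645. The target Hes5 had no count. Ligands were led by Jag1 (44.9 ± 11.7), Jag2 (18.0 ± 6.19) and Dll1 (16.5 ± 6.46 rescaled TPM). All 8 chemokine and hedgehog receptors and factors listed were expressed. Ptch1, receptor and target of hedgehog, had 115 ± 32.1, Gli3 79.1 ± 19.1, Gli1 35.5 ± 9.45 and Smo 28.6 ± 5.08 rescaled TPM. Gli2 had 21.9 ± 8.69 and Ackr3 11.2 ± 3.33 CPM.

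**Figure D3:**
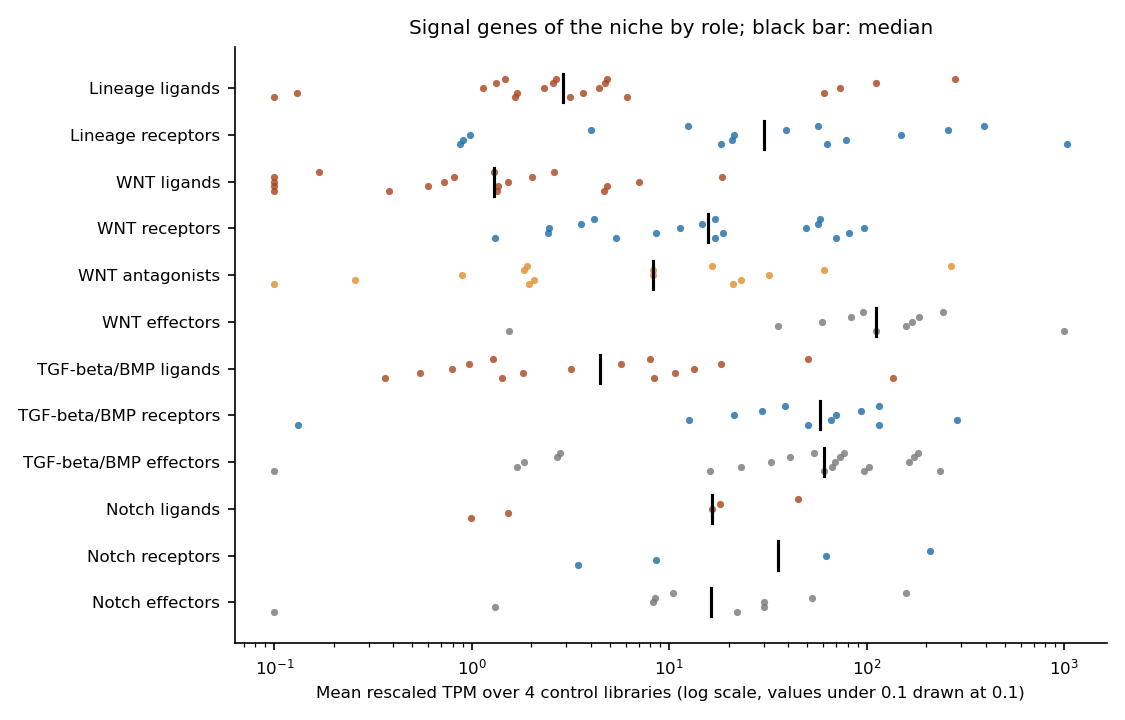
Mean rescaled TPM over the 4 control libraries (log axis) of each listed signal gene, by pathway and role; each point is a gene, the black bar is the median, and values under 0.1 are drawn at 0.1. The medians of receptors lie above those of ligands in all 4 families, 30.1 against 2.91, 15.8 against 1.29, 58.1 against 4.44 and 35.4 against 16.5.

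All 26 genes of the quiescence list were expressed, with a median of 68.7 rescaled TPM. Klf6 (613 ± 94.2 CPM), Klf4 (432 ± 93.7), Btg1 (279 ± 36.4) and Dyrk1a (210 ± 13.4) were the highest by CPM. Rbl2, the pocket protein p130 of resting cells, stood at 174, 180, 166 and 163 CPM, and Foxo3 at 182, 174, 208 and 200 CPM. Klf4, Klf6 and Btg2 are also immediate early or stress-responsive genes.

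Of 8 inhibitors of cyclin-dependent kinases 5 were expressed. Cdkn1a (p21) had 170 ± 14.2 and Cdkn1b (p27) 104 ± 6.85 rescaled TPM. Cdkn1b stood at 156, 149, 130 and 135 CPM and Cdkn1a at 124, 112, 129 and 113 CPM, with little spread. Cdkn1c (p57) had 50.8 ± 19.7 and Cdkn2d 32.4 ± 15.0 rescaled TPM. Cdkn2a, which encodes p16Ink4a and p19Arf and is a known target of repression by Polycomb, had no count in any control library, which allows up to 0.307 to 0.338 CPM per library (3 counts, counting error only). Cdkn2b, its neighbour, stood at 0.106, 2.87, 2.77 and 0.900 CPM. Bmi1, the Polycomb subunit deleted in the other group of the study, stood at 84.1, 76.1, 75.0 and 96.7 CPM and 228 ± 32.0 rescaled TPM. All 23 listed Polycomb genes were expressed. Ezh2, the histone methyltransferase, had 282 ± 62.3 rescaled TPM, and Jarid2 (174 ± 31.6), Rbbp7 (172 ± 29.0), Phc3 (165 ± 15.6) and Rbbp4 (123 ± 17.9) were the highest by CPM.

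Of the cell cycle lists, G1 regulators had the highest median and mitotic genes the lowest. All 14 cyclins, kinases and factors of G1 were expressed (median 34.0 rescaled TPM), led by Myc at 319 ± 68.0 and Ccnd3 at 191 ± 62.8 rescaled TPM, with Ccnd2 at 162 ± 63.3. Of 24 S phase genes 22 were expressed (median 15.9 rescaled TPM), and of 26 genes of G2 and mitosis 18 (median 6.89, against 5.56 over all coding genes). The S phase genes summed to 420, 439, 480 and 737 CPM and those of G2 and mitosis to 168, 208, 221 and 474 CPM. Control 4 thus held the highest sum of both. Mki67, a marker of cycling cells, stood at 33.3, 43.4, 61.0 and 132 CPM and 15.8 ± 10.1 rescaled TPM, and Top2a at 19.5, 24.1, 21.5 and 68.1 CPM. Control 4 was the highest library for 9 of 9 mitotic genes and 13 of 14 S phase genes with a mean of at least 10 CPM, against 26.9% of all 9093 genes at that level. Without control 4, Mki67 had a mean of 45.9 CPM and the mitotic genes summed to a mean of 199 CPM.

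Immediate early genes were at high levels. All 24 listed were expressed and their median was 356 CPM and 374 rescaled TPM. Fos stood at 1887, 1931, 1442 and 932 CPM and 3684 ± 1045 rescaled TPM, rank 10. Fosb stood at 1462, 1246, 838 and 499 CPM, Jun at 1367, 1190, 994 and 842 CPM, and Egr1 at 1613, 1666, 1357 and 735 CPM. The sum of the list was 14064, 13327, 10991 and 8302 CPM, with control 4 lowest for 19 of the 24 genes, against 29.5% of all genes at that level. These genes are known to be induced within minutes, enzymatic dissociation at 37 °C included, and these libraries have no undissociated tissue to set beside them. Heat shock genes were all 14 expressed, led by Hsp90ab1, Hspa8, Hsp90aa1 at 1265 ± 365 and Hspa5 at 749 ± 269 CPM. Hspa1a stood at 1229, 347, 527 and 548 CPM and Hspa1b at 1168, 374, 592 and 708 CPM, both highest in control 1. The transcripts of this pair share 63.8% of the 31-base words of Hspa1a, so their counts are uncertain singly. The pair summed to 2396, 721, 1119 and 1256 CPM. All 14 heat shock genes summed to 9310, 7007, 9315 and 12090 CPM, highest in control 4. Control 4 was the highest library for 7 of the 14 and control 1 for 5. Among all genes at a mean of at least 10 CPM these shares were 26.9% and 27.5%.

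Genes of the Schwann and glial lineage, which also comes from the neural crest, were expressed too. Their list holds Foxd3, named above among the lineage factors, so not all members are particular to Schwann cells. All 19 were expressed, with a median of 131 CPM and 118 rescaled TPM. Pmp22, a membrane protein of peripheral myelin, stood at 763, 682, 476 and 399 CPM. Mbp, myelin basic protein, stood at 631, 512, 385 and 301 CPM. Each of these 2 myelin genes was highest in control 1 and lowest in control 4, the reverse of Dct and Tyrp1. The sum of the list was 6038, 5335, 4131 and 3229 CPM. Control 4 was lowest for 15 of the 18 members with a mean of at least 10 CPM, against 29.5% of all genes at that level. Scn7a (360 ± 149 CPM), Cdh19 (288 ± 105 CPM) and the myelin protein periaxin, Prx (261 ± 70.0 CPM), were lowest in control 4 too. Whether Schwann cells were sorted with the melanocyte stem cells or the GFP-positive cells themselves carried these RNAs was not tested.

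Within the fibroblast list the collagens made the greater part of the counts. The 6 collagens of the fibroblast list summed to 8134, 6553, 5342 and 4694 CPM, and its 13 other members to 755, 661, 450 and 481 CPM. Col3a1 stood at 3510, 3003, 2437 and 1984 CPM, Col1a2 at 1665, 1325, 1141 and 1100 CPM and Col1a1 at 1698, 1269, 1061 and 995 CPM. Of the 13 others 9 were expressed, with a median of 3.38 CPM, led by Postn (341 ± 76.8 CPM), Fbln2 (187 ± 74.9 CPM) and Fbln1 (30.4 ± 10.5 CPM). Lower members of the list were Dcn (12.9, 11.5, 5.43 and 4.95 CPM), Lum (3.38 ± 1.44 CPM), Pdgfra (3.09 ± 0.670 CPM) and Dpt (0.417 ± 0.432 CPM). These were named after their values were seen. Over all 44 collagen genes 34 were expressed, and the basement membrane collagens Col4a1 (1844, 1557, 1391 and 1255 CPM) and the fibril-associated Col12a1 (1134, 1015, 1715 and 1925 CPM) were the next highest. Col12a1 was highest in control 4. That library was lowest for 20 of the 27 collagens with a mean of at least 10 CPM, against 29.5% of all genes at that level.

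Keratinocyte and hair follicle genes were present too. The 18 basal keratinocyte and follicle genes summed to 8306, 7625, 7486 and 6416 CPM, of which Dst alone gave 4593 ± 691. Of the 18, 17 were expressed, led by Dst and by Itga6 (945, 863, 622 and 536 CPM), which are adhesion genes of many cell types, and by Cdh3 (400 ± 84.9 CPM) and Krt15 (314, 227, 396 and 332 CPM). Krt5 and Krt14, the keratins of the basal layer, had 361 ± 41.1 and 362 ± 23.9 rescaled TPM, below Sox10 at 486 ± 63.3. The keratin sum was 1136, 1393, 1466 and 1326 CPM over 53 genes, 12 of them expressed. Suprabasal and sebocyte genes had 13 of 16 expressed, led by the lipid enzymes Fasn (274 ± 65.7 CPM) and Scd1 (211 ± 60.3) and by Krt77 (141 ± 60.4) and Krt10 (134 ± 44.6 CPM). Krt10 was higher in controls 2 and 3 (190 and 150 CPM) than in 1 and 4 (97.7 and 98.6 CPM).

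Other cell types left few counts. Of 15 endothelial genes 6 were expressed and the list summed to 73.7, 74.8, 73.4 and 41.6 CPM, of which the lymphatic factor Prox1 gave 23.2 ± 7.68 CPM and Pecam1 9.89 ± 3.79. The macrophage and Langerhans cell list had 5 of 18 expressed and sums of 62.3, 89.1, 116 and 119 CPM, led by Cd74 (25.4 ± 11.9 CPM) and Cd68 (16.7 ± 8.80 CPM), while Aif1 had no count. T and B cell genes summed to 15.9 to 26.6 CPM, skeletal muscle to 7.24 to 11.0 and adipocyte genes to 6.30 to 14.0. The T cell receptor constant genes Trac and Trbc1 and the adipocyte genes Adipoq, Lep and Cidec had no count. The hair matrix and shaft list summed to 17.7 to 24.8 CPM, with no count for Krt71, Krt72 and Krt33a. Mast cells also carry Kit, and the 9 other mast cell genes summed to 6.55, 16.6, 16.8 and 1.01 CPM, with none expressed in all 4 and no count for Tpsab1, Ms4a2 and Fcer1a. In the mural list, Cspg4 (498 ± 71.6 CPM) and Mcam (287 ± 28.1 CPM), both also known in pigment cells, gave most of the sum, while Acta2 had 8.86 ± 2.30 CPM. The neuronal and Merkel cell list was led by Piezo2 (39.6 ± 11.6 CPM), with no count for Atoh1, Syt1 and Elavl4, and red cell and platelet genes summed to 25.4 ± 17.1 CPM. That sum was highest in control 3, where the globin gene Hba-a2 stood at 18.7 CPM against 0.211, 3.18 and 10.2 CPM in controls 1, 2 and 4.

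**Figure D4:**
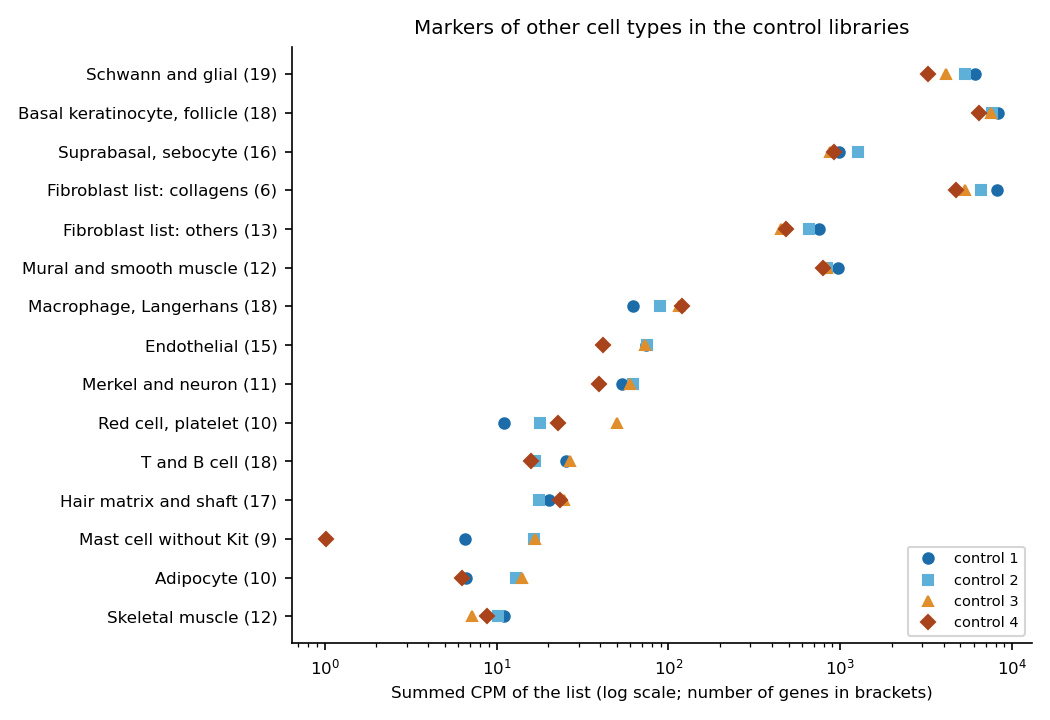
Summed CPM (log axis) of marker lists of other cell types in each control library, with the number of genes in brackets. Schwann, basal keratinocyte and collagen sums lie at 3229 CPM or more, while endothelial, immune, skeletal muscle and adipocyte lists lie at 119 CPM or less in all 4 libraries.

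Adhesion molecules known from the follicle niche were all 22 expressed, with a median of 199 rescaled TPM. Besides Itga6, the highest by CPM were E-cadherin, Cdh1 (612, 656, 693 and 867 CPM), the integrins Itgb1 (584 ± 73.6 CPM) and Itgav (419 ± 72.7 CPM), and Ncam1 (409 ± 58.2 CPM). Of survival genes 11 of 16 were expressed. The anti-apoptotic Mcl1 led at 602, 665, 616 and 560 CPM and 587 ± 73.1 rescaled TPM, above Bcl2l1 at 83.5 ± 13.8 and Bcl2, a gene known to keep melanocyte stem cells alive, at 50.2 ± 7.61 rescaled TPM. The pro-apoptotic Bcl2l11 had 80.9 ± 5.73 rescaled TPM. Of 21 antioxidant genes 19 were expressed, led by the ferritin chains Fth1 (1947 ± 125 rescaled TPM) and Ftl1 (926 ± 214). Txnrd1 (185, 194, 276 and 316 CPM) and Nfe2l2 (190, 154, 208 and 234 CPM), the factor that governs many of these genes, were highest in control 4. Antigen presentation and interferon genes were all 15 expressed, led by H2-D1 (468 ± 97.5 CPM), B2m (401 ± 46.4), Irf1 (396 ± 114) and H2-K1 (190 ± 39.0 CPM).

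Gene families differed widely in the share of members expressed. Cytosolic ribosomal proteins had 83 of 86 expressed with a median of 644 rescaled TPM, and heterogeneous nuclear ribonucleoproteins 20 of 20. Proteasome subunits had 46 of 50, Rab GTPases 46 of 59 and vacuolar ATPase subunits, which acidify melanosomes and lysosomes, 19 of 26. Of 389 solute carriers 191 were expressed, and of 101 cytochromes P450 17. At the other end, keratin-associated proteins (57 genes, 49 with no count), taste receptors (38 and 28), beta-defensins (42 and 38) and major urinary proteins (22 and 20) had no member expressed. Olfactory receptors had 32 of 1135 expressed and 622 with no count, yet summed to 387, 496, 298 and 212 CPM. Their highest member was Olfr784 at 16.6, 26.3, 13.7 and 8.89 CPM. Vomeronasal receptors had 25 of 326 expressed. Of 39 Hox genes 9 were expressed and none had a mean of 10 CPM, the highest being Hoxc13 at 4.65 ± 2.14 CPM.

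Between the 4 libraries most genes varied modestly. Among 9093 genes with a mean of at least 10 CPM the median CV was 17.4%, where counting alone would give 5.09%, and the median ratio of the highest to the lowest library was 1.48. The CV was under 10% for 1651 genes (18.2%) and at least 50% for 242 (2.66%). The common biological coefficient of variation from edgeR was 0.275. Pearson's r of log2 levels between pairs of libraries over these genes ran from 0.925 (controls 1 and 4) to 0.957 (controls 1 and 2). These are descriptions across genes, which share each library's depth and preparation.

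Among 3807 genes at 50 CPM or more, with pseudogenes and predicted genes (symbols Gm and Rik) left out, the 10 with the highest CV were mt-Co3, Ddx3y, Xist, Mid1, Hmox1, AC149090.1, Polg2, Phldb3, Mki67 and mt-Atp6. mt-Co3 stood at 12.8, 203, 18.4 and 35.0 CPM, but shares 99.9% of its 31-base words with the nuclear copy Gm28437, and mt-Atp6 shares 99.5% with Gm10925. Their counts could be split between copies and are uncertain. Hmox1, the heme oxygenase induced by oxidative stress, stood at 23.0, 23.9, 65.6 and 102 CPM, high in controls 3 and 4. Mid1, on the X chromosome, stood at 60.4, 41.4, 193 and 39.5 CPM, AC149090.1 at 42.2, 20.7, 130 and 78.0 CPM and Polg2 at 36.4, 18.1, 98.8 and 48.7 CPM, each highest in control 3. Phldb3 stood at 25.5, 28.4, 51.2 and 101 CPM. The 5 genes with the lowest CV were Tpr (1.40%), Grb10 (1.57%), Eif1a (1.66%), Arglu1 (1.71%) and Wiz (1.79%). Tpr, a nuclear pore protein, stood at 384, 383, 392 and 394 CPM.

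Several gene groups had their highest or lowest sum in control 4, while others did not. Ribosomal proteins summed to 13105, 12873, 17048 and 21276 CPM, and control 4 was the highest library for 78 of the 82 at 10 CPM or more. The pigment list was highest in control 4 for 10 of 12 members, the antioxidant list for 16 of 19 and the heat shock list for 7 of 14. Among all genes at that level the share highest in control 4 was 26.9%. In the same library the Schwann (15 of 18), collagen (20 of 27) and immediate early (19 of 24) groups were lowest, against 29.5% of all genes. Control 4 was picked after its values were seen, and the counts are a description. The genes of melanosome biogenesis and movement went another way, with sums of 2865, 2632, 4266 and 3700 CPM, highest in control 3 for 9 of 18 members and in control 4 for 3 of 18. Polycomb subunits too had their highest sum in control 3, and the summed lineage factors, at 4318 to 4465 CPM, hardly moved. The part of cell makeup, sex or preparation in these differences was not tested.

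**Figure D5:**
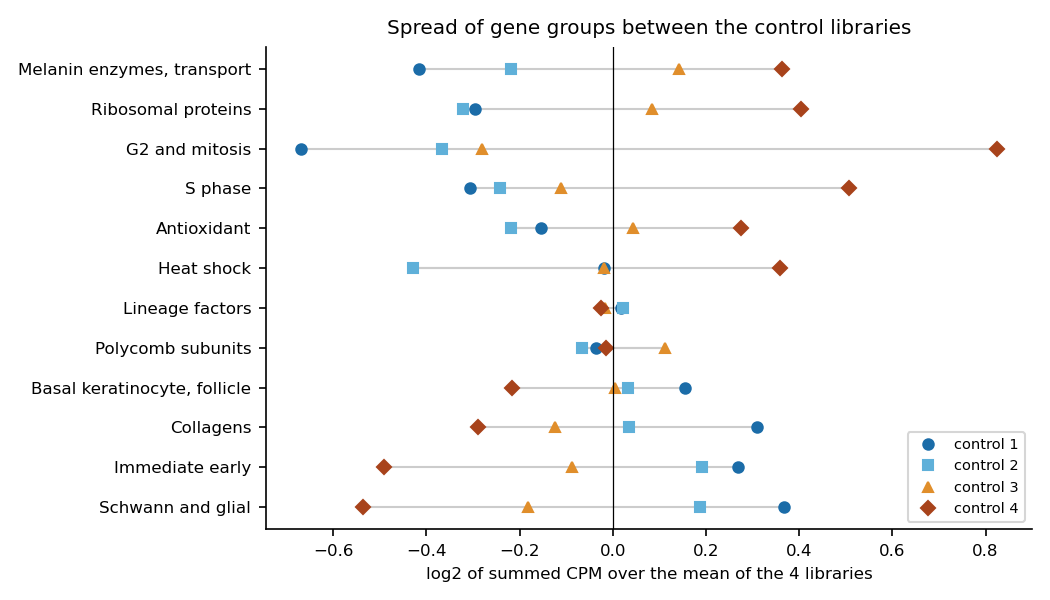
log2 of each gene group's summed CPM in a library over its mean across the 4 control libraries. Pigment, ribosomal protein, cell cycle, antioxidant and heat shock sums are highest in control 4. Schwann, immediate early and collagen sums are highest in control 1, and the sum of lineage factors hardly moves.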

How the data were processed

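RNA was sequenced from 4 control and 4 Bmi1-deleted libraries, and the control libraries alone are described here. Per the labels' protocols, 1 ng of RNA per library went through a stranded total RNA kit with 15 cycles of PCR before and 15 after an enzyme step that removes ribosomal fragments. The sources used here name no molecular identifiers, so counts include PCR copies, and floors cover counting error only. The authors deposited estimated counts per gene as whole numbers, made with Salmon 1.2.1 on build mm10 per the submitters' processing notes. They also deposited log2 values of TPM plus 1. Their annotation, strand setting and rounding are not stated here. Total counts were 8882656 to 9466711 per library, and 0 columns of the 4 control libraries were left unused.

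CPM were computed from the counts with TMM factors of edgeR 4.0.16 (R 4.3.3) over all 8 libraries. Gene names, biotypes and positions came from GENCODE M21, in which 54166 of 54418 identifiers had a symbol. Because Gm23935 dominated the deposited TPM, the log2 values were undone and rescaled over nuclear protein-coding genes. The common biological coefficient of variation came from edgeR on genes kept by filterByExpr and was checked on simulated data. No test between groups was run, since 1 group was described. Dixon's rule served only to flag libraries that stood apart.

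The members, the 42 gene lists and the 29 families (genes sharing a symbol pattern, so that a few unrelated names enter) were chosen with earlier results of these data known. The genes Asip, Defb103 and Krt85 of these lists matched no identifier by symbol. Named genes were the 4 markers, Bmi1 and Cdkn2a, the 15 nuclear protein-coding and 5 other genes of highest CPM, up to 4 highest members and 3 with no count in each list, signal ligands and receptors at 10 CPM or more, and the 10 highest and 5 lowest by CV. Other genes were named after their values were seen. Some genes that the rule names are not reported here. Alternatives were DESeq2 1.42.0 size factors, no scaling factors, TMM over 4 libraries, other thresholds, another TPM scale, and each library left out in turn.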

Additional observations from a re-analysis of the deposited data

Results flagged for a closer look

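In 13 of the 332 genes and gene groups examined, 1 control library stood apart from the other 3 by Dixon's rule, which takes its gap to the nearest library over the whole range. Chance alone flags about 1 in 20 independent sets, which is more than the share seen. Genes and groups here overlap and some genes were named for their high CV, so the shares do not make a test. Control 4 stood apart for Top2a (68.1 CPM against 19.5 to 24.1), for the summed genes of G2 and mitosis (474 CPM against 168 to 221), for the summed endothelial genes (41.6 CPM against 73.4 to 74.8) and for Piezo2 (22.4 CPM against 43.9 to 48.2). The first 2 share members, since Top2a is in the mitotic list. Control 2 stood apart for mt-Co3 (203 CPM against 12.8 to 35.0), for Sox10 (352 CPM against 428 to 442) and for Nfia (237 CPM against 207 to 210).

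Control 1 was high for Plec (2637 CPM against 1822 to 1942), Nkd1 (258 CPM against 188 or more), Cdkn1c (25.3 CPM against 18.3 to 19.1) and the summed ligands of TGF-beta and BMP (242 CPM against 215 to 219). Control 3 was high for Mid1 (193 CPM against 39.5 to 60.4) and low for Smo (29.6 CPM against 45.1 to 45.9).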

How the results depend on the processing

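No paired analysis was possible because 1 group was described and no groups were compared. The number of genes expressed (13350) ran from 13716 to 13832 with 1 library left out, and was 9814 at a threshold of 5 CPM and 13293 at 10 counts. It was 13350 with DESeq2 size factors and without scaling too, which was bound to occur. Under these scalings 1 CPM needs the same whole number of counts in each library, so the equal result does not bear on the choice of scaling. Genes with no count (23590) ran from 24719 to 26102 with 1 library left out and rose to 28772 when up to 3 counts per library were allowed. Leaving a library out can only keep or raise the number of genes expressed and the number with no count. The direction of those shifts was therefore fixed in advance. The share of the 50 most abundant genes (a mean of 23.3%) moved to 20.4% without Gm23935 and CT010467.1 and to 11.8% over nuclear protein-coding genes alone. The common biological coefficient of variation (0.275) moved to 0.648 without the filter on low counts and ran from 0.267 to 0.285 with 1 library left out. Of the 242 genes with a CV of at least 50%, 31 had a mean of at least 50 CPM, predicted genes included. The count of 242 ran from 223 to 311 with 1 library left out. The other scalings shifted the 71 list sums by 0.979% to 2.43%, less than their SDs, and likewise 260 of 261 named genes, the exception being Tpr, whose SD is small. Rescaling TPM over all genes but Gm23935 and CT010467.1 shifted named genes by −31.6% to −29.0%. Without control 2, mt-Co3 had a mean of 22.1 CPM in place of 67.2.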
